A study of Mus musculus with 6 samples.

Results

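The Wnt pathway feedback inhibitors examined here are 10 mouse genes, Axin1, Axin2, Notum, Nkd1, Nkd2, Apcdd1, Znrf3, Rnf43, Wif1 and Sp5, whose products restrain Wnt signalling. They were taken by gene symbol from a table of read counts, and each of the 10 had 1 row among its 49671 genes. The genes were chosen by their role in the pathway and with the fold changes between the study's 2 groups already known, among them the rises of Axin2, Nkd2 and Notum. Their fold changes, and the calls that a fit over all genes gave them, are therefore a description of these libraries and are not used as evidence.

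RNA was sequenced from 6 libraries of immortalised mouse preadipocytes after differentiation in culture. The cells came from the inguinal fat of C57BL/6 mice, 3 months old, that carried floxed Tcf7l2 (Tcf7l2 F/F). Both groups share this floxed allele, SV40 large T antigen, used to immortalise the cells, and a retroviral CreERT2, a Cre recombinase that 4-hydroxytamoxifen (4-OH-Tam) switches on. The 3 control libraries, labelled wild type, came from cells given ethanol (EtOH), the solvent. The 3 knockout libraries, labelled Tcf7l2 Knock out cells, came from cells given 4-OH-Tam. Either agent was given for 24 h, 2 days before differentiation began, and cells were differentiated with 1 µM dexamethasone, 0.5 mM isobutylmethylxanthine and 5 µg/mL insulin and taken at day 8. An agent at 5 nM is also listed, under a code that changes from library to library, and whether it differed between groups is not settled by the labels. Deletion and tamoxifen treatment coincide in every library and cannot be told apart, and the controls carry the floxed allele and CreERT2 without activation. The labels describe 1 inducible line and leave unsaid whether each library had its own culture, so the spread between libraries, and any p-value that rests on it, may be technical.

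Wnt proteins bind Frizzled receptors and LRP5 or LRP6 at the cell surface, which stops a cytoplasmic complex built on AXIN1 or AXIN2 from marking beta-catenin for destruction. Beta-catenin then enters the nucleus and acts with TCF/LEF proteins such as TCF7L2. Several genes it activates encode brakes on the same pathway, and Axin2 is the brake most often used as a readout of it. In fat, Wnt signalling is known mainly for holding preadipocytes back from becoming adipocytes. Of the 10 genes, Axin2, Notum, Nkd1, Nkd2, Apcdd1, Znrf3, Rnf43 and Sp5 have been described as targets of the pathway in at least some tissues, whereas Axin1 is a constant scaffold and WIF1 a secreted binder of Wnt proteins.

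RefSeq promoter sequences on GRCm38.p6 were found for 6 of the 10 genes (Axin2, Nkd1, Nkd2, Rnf43, Wif1 and Sp5), as 7 windows since Rnf43 has 2. The 250 bases before the annotated start are shown for 3 of them: Axin2 and Nkd2, which were higher in knockout cells, and Sp5, which had no read in any library. Axin2 is given from chr11:108920099-108920348 (plus strand), Nkd2 from chr13:73847632-73847881 (minus strand) and Sp5 from chr2:70474673-70474922 (plus strand). All are written 5′ to 3′ on the strand of the gene, and capitals mark matches to the TCF/LEF letters, which are CTTTG followed by AT, AA, TT or TA, on either strand.
Axin2: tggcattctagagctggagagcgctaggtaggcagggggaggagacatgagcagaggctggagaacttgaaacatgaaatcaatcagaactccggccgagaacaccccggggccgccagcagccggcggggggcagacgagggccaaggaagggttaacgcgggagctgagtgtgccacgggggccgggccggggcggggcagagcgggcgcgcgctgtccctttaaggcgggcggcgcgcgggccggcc
Nkd2: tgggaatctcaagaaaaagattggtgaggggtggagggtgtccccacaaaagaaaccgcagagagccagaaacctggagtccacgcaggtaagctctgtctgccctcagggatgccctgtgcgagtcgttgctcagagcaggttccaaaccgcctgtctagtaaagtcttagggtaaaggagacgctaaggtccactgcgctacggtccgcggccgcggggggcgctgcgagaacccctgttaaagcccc
Sp5: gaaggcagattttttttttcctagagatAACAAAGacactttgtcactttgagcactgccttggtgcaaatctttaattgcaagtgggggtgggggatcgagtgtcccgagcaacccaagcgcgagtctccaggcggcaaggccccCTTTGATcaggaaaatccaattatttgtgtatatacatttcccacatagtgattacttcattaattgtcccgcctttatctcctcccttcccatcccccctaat

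Among the 7 windows, TCF/LEF letters occurred in that of Sp5 and in no other. Sp5 held CTTTGAT on the plus strand, 104 to 98 bases before the start, and CTTTGTT on the minus strand, 222 to 216 bases before it. Of 32851 RefSeq promoter windows of the same length, 14.8% held at least 1 such match. The letters GCCGCC, the helper site that some TCF isoforms bind beside the TCF/LEF letters, were found in the windows of Axin2 (2 matches), Sp5, Nkd1 and Wif1 (1 each), and in 18.5% of all windows. The GC box GGGCGG, to which SP family factors bind, occurred in Axin2 (2 matches) and Wif1 (2 matches), and in 32.7% of all windows. Both strands were searched, and GCCGCC and GGGCGG can overlap, as they do near the start of Axin2. The Axin2 window was 69.2% G and C with 24 CpG dinucleotides, that of Nkd2 58.4% with 14 and that of Sp5 46.0% with 6, against a median of 52.4% over all windows. The Nkd1 window and both Rnf43 windows lie inside their genes as GENCODE draws them, and the Wif1 window runs past the start of its gene. These letters describe a short window and say nothing of whether a factor binds there or elsewhere in the gene.

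Each library held 26621293 to 33484764 counts. Levels are given as CPM, read counts scaled to a common library size, after TMM scaling, which adjusts for differences in make-up between libraries. A gene was tested if edgeR's filter on low counts kept it, and called if its Benjamini-Hochberg adjusted p over all tested genes was under 0.05. Tcf7l2, the targeted gene (GRCm38 chromosome 19, 55741820 to 55933654), was at 7.71, 6.13 and 9.11 CPM in control and 5.65, 6.85 and 5.86 CPM in knockout libraries, so the groups overlapped. Its log2 fold change was -0.32 (SE 0.14) and it was not called (edgeR adjusted p = 0.125), except without control replicate 2 (log2 fold change -0.46, edgeR adjusted p = 0.0322). The floxed part of the gene is not stated, so the whole-gene count does not check the deletion. Fat cell markers were abundant, led by Fabp4 (4391 and 6869 CPM on average in control and knockout cells). They moved with the groups: 8 of 10 were called higher and 0 lower, where 11.9% and 10.5% of all tested genes were. Their summed level was 8512 to 8726 CPM across the control libraries and 10970 to 13270 CPM across the knockout libraries. Of 10 preadipocyte and fibroblast markers, led by Pdgfra (1247 and 1135 CPM), 0 rose and 1 fell (4142 to 4589 against 4076 to 4740 CPM). Of 7 muscle and nerve markers, Des was the 1 that rose (4.11 and 7.74 CPM; list sum 5.24 to 6.91 against 8.41 to 10.1 CPM), with Myf5 and Sox10 at 0 in every library. Of 6 endothelial markers, Kdr was the 1 that rose (13.6 and 17.6 CPM), and Tek (10.2 and 9.35 CPM) was not called. The list sum was 23.7 to 25.7 against 26.99 to 28.3 CPM, while the defining marker Cdh5 was at 0.0225 and 0.0124 CPM. Immune markers, led by Csf1r (2.85 and 2.75 CPM), summed to 3.97 to 5.03 and 4.35 to 4.74 CPM with Adgre1 and Cd3e at 0. Epithelial and mesothelial markers (Msln 0.0502 and 0.178 CPM) summed to at most 0.478 CPM in any library. In these bulk libraries a change in the share of cells of a type and a change in RNA per cell cannot be told apart, and the part of the marker changes in the results that follow was not tested.

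Of the 10 feedback inhibitors, 7 passed the filter and 3 (Rnf43, Wif1 and Sp5) did not. Notum, Axin2, Nkd2 and Apcdd1 were called higher in knockout cells, 2.66-fold, 1.94-fold, 1.63-fold and 1.36-fold. Axin1 was called lower, 1.11-fold, and Nkd1 and Znrf3 were not called. Across all 14946 tested genes 11.9% were called higher, 10.5% lower and 22.4% in either direction. CPM values did not overlap between the groups for any of the 7, with 5 having all knockout libraries above the controls and 2 (Axin1 and Znrf3) all below. Among all tested genes those shares were 18.5% above and 19.3% below. The median log2 fold change of the 7 was 0.44, against -0.0017 for all tested genes. The members were proposed with this contrast in view, so nothing is read from these counts or from calls of members named further on.

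**Figure D1:**
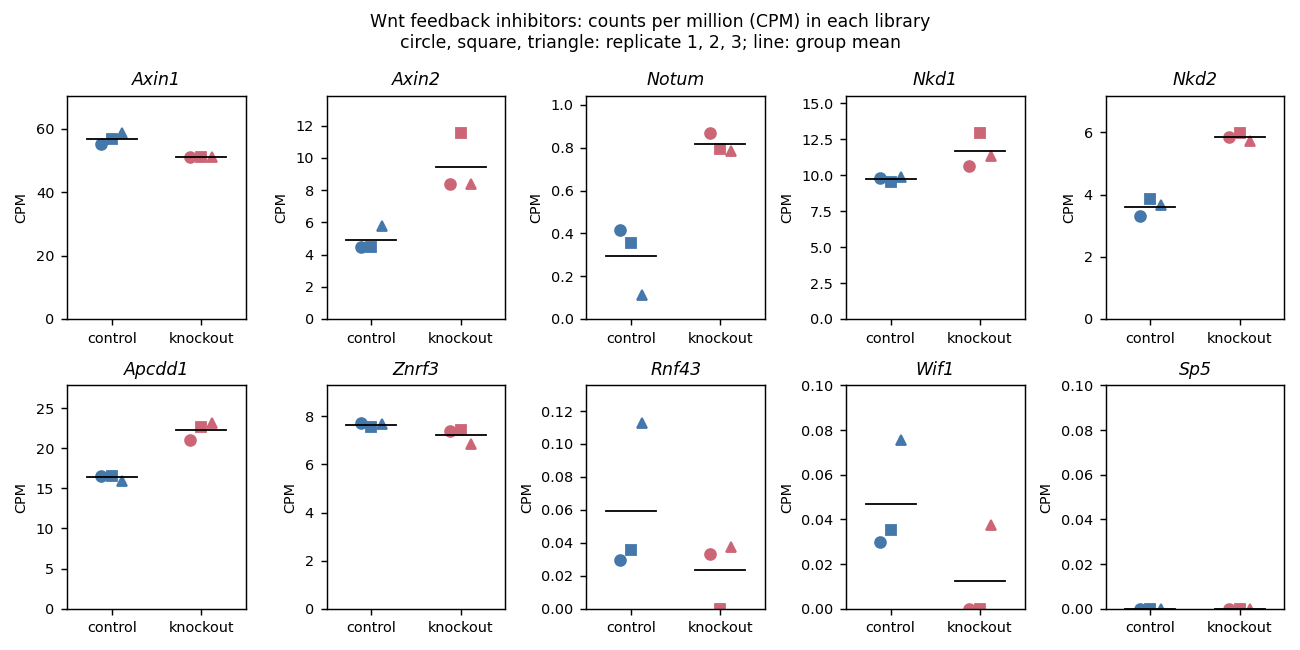
Level of each of the 10 feedback inhibitors in CPM (vertical axes, starting at 0 and scaled per gene) in the 3 control and 3 knockout libraries, with lines for group means. Axin2, Notum, Nkd1, Nkd2 and Apcdd1 have all knockout points above the control points, Axin1 and Znrf3 have them below, and Rnf43, Wif1 and Sp5 lie between 0 and 0.113 CPM.

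AXIN1 and AXIN2 are interchangeable scaffolds of the complex that destroys beta-catenin, one made constitutively and the other on demand. Axin2 (GRCm38 chromosome 11, 108920349 to 108950783, plus strand) was at 4.47, 4.46 and 5.76 CPM in the control libraries and 8.36, 11.6 and 8.40 CPM in the knockout libraries. Every knockout library lay above every control library, and control replicate 3 and knockout replicate 2 stood above the other 2 of their groups. The means were 4.90 ± 0.749 and 9.44 ± 1.84 CPM (SD, n = 3), a log2 fold change of 0.96 (SE 0.15), and 186 of the tested genes had a larger fitted rise. The fitted change was 0.78 to 1.08 over 13 alternative settings.

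Axin1 (chromosome 17, 26138688 to 26195811, plus strand) stood at 55.2, 56.9 and 58.8 CPM in control and 51.0, 51.3 and 51.2 CPM in knockout libraries. The knockout libraries were lower by a small step. They were almost equal to each other, closer than counting error alone would make them. Its log2 fold change was -0.15 (SE 0.050). Axin1 was not called in 9 of the 13 alternatives. This was so when a CPM of at least 1 in 3 libraries was asked for (-0.14), with no filter (-0.14) and with DESeq2 (-0.15). Leaving out control replicate 1 (-0.18), 2 (-0.16) or 3 (-0.13), or knockout replicate 1 (-0.15) or 3 (-0.15), had the same effect, as did leaving out control replicate 3 and knockout replicate 2 together (-0.13).

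To compare levels between genes, CPM was divided by the length of each gene's exons in kilobases. On this scale Axin1 was at 14.9 ± 0.465 in control and 13.4 ± 0.0371 in knockout cells (SD, n = 3), and Axin2 at 0.889 ± 0.136 and 1.71 ± 0.334. Axin1 was thus the more abundant scaffold transcript in every library. The Axin2 to Axin1 ratio was 0.0562, 0.0546 and 0.0681 in control and 0.114, 0.157 and 0.114 in knockout libraries. Its mean went from 0.0596 ± 0.00740 to 0.128 ± 0.0247 (SD, n = 3), so Axin2 remained the minor partner after the shift.

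NKD1 and NKD2, the naked cuticle proteins, bind Dishevelled and damp the signal below the receptor. Nkd2 (chromosome 13, 73818534 to 73847631, minus strand) was at 3.31, 3.86 and 3.65 CPM in control and 5.85, 5.99 and 5.71 CPM in knockout libraries. The knockout values were close to each other and all above the controls. The log2 fold change was 0.70 (SE 0.11) (0.64 to 0.75 over the 13 alternatives).

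Nkd1 (chromosome 8, 88521354 to 88594884, plus strand) was at 9.80, 9.53 and 9.87 CPM in control and 10.6, 12.9 and 11.4 CPM in knockout libraries. The groups did not overlap, but knockout replicate 1 lay nearer the controls and replicate 2 highest. The log2 fold change was 0.26 (SE 0.092) and the gene was not called. Leaving out knockout replicate 1 brought a call (0.32), as did asking for a CPM of at least 1 in 3 libraries (0.27). Leaving out knockout replicate 2 lowered the change to 0.17.

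Per kilobase, Nkd1 was at 2.13 ± 0.0391 in control and 2.55 ± 0.258 in knockout cells, and Nkd2 at 0.747 ± 0.0582 and 1.21 ± 0.0285 (SD, n = 3). The Nkd2 to Nkd1 ratio was 0.319, 0.383 and 0.350 in control and 0.520, 0.437 and 0.475 in knockout libraries, without overlap. Here the less abundant paralog had the larger fitted rise and stayed the less abundant one. Among the axins only the less abundant Axin2 rose, while Axin1 was slightly lower in knockout cells (log2 fold change -0.15).

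**Figure D2:**
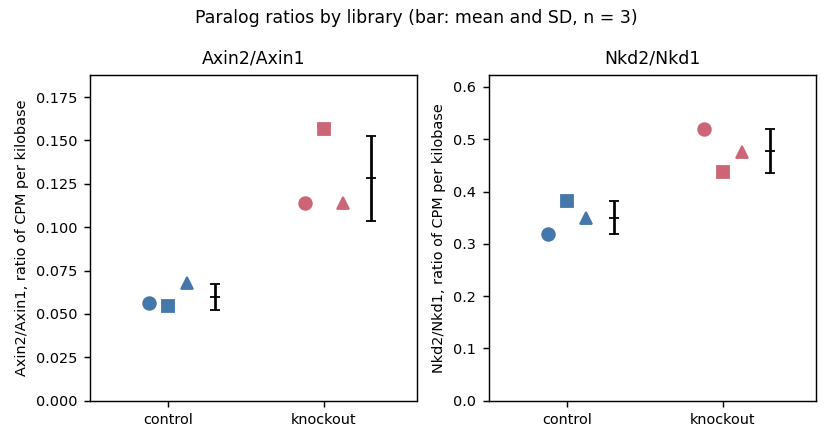
Ratio of Axin2 to Axin1 and of Nkd2 to Nkd1 in CPM per kilobase of exon (vertical axes, starting at 0) for each control and knockout library, with the mean and SD of 3 libraries beside the points. The Axin2 to Axin1 ratio spans 0.0546 to 0.0681 for the controls and 0.114 to 0.157 for the knockouts, and the Nkd2 to Nkd1 ratio is 0.319 to 0.383 and 0.437 to 0.520.

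NOTUM is a secreted enzyme that removes the lipid that Wnt proteins need to bind Frizzled. Notum (chromosome 11, 120653788 to 120661175, minus strand) had 14, 10 and 3 counts in the control libraries and 26, 25 and 21 in the knockout libraries. That is 0.417, 0.354 and 0.113 CPM against 0.870, 0.796 and 0.784 CPM, with control replicate 3 the lowest. Pooling each group gave 0.306 CPM (95% exact Poisson interval 0.201 to 0.445) in control and 0.817 CPM (0.640 to 1.03) in knockout cells. These intervals cover counting error only. The log2 fold change of 1.41 (SE 0.34) was the largest among the 7 and had the largest standard error. It was 1.06 to 1.77 over the 12 alternatives that kept the gene, which the CPM filter of 1 removed. Notum shares 29.4% of its exonic bases with Notumos of the other strand, whose mean over the libraries was 0.0226 CPM.

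APCDD1 is a membrane glycoprotein that binds Wnt and LRP proteins. Apcdd1 (chromosome 18, 62922231 to 62961179, plus strand) was at 16.6, 16.5 and 16.0 CPM in control and 21.0, 22.7 and 23.2 CPM in knockout libraries. Both groups were tight and did not overlap. The log2 fold change was 0.44 (SE 0.070) (0.41 to 0.49 over the 13 alternatives). WIF1, the other extracellular Wnt binder of the set, was hardly detected: Wif1 (chromosome 10, 121033960 to 121100650) had 1, 1 and 2 counts in control and 0, 0 and 1 in knockout libraries, too few for a fold change.

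ZNRF3 and RNF43 are paired ubiquitin ligases that clear Frizzled and LRP6 from the cell surface. Znrf3 (chromosome 11, 5276324 to 5444847, minus strand) was at 7.74, 7.55 and 7.68 CPM in control and 7.39, 7.42 and 6.83 CPM in knockout libraries. The 2 groups lay close together, with every knockout library slightly below every control library. Its log2 fold change of -0.08 (SE 0.092) was within 1 standard error of 0, and it was not called in any alternative (-0.10 to -0.05). Rnf43 (chromosome 11, 87662722 to 87735539, plus strand) had 1, 1 and 3 counts in control and 1, 0 and 1 in knockout libraries. Summed over a group this was 5 and 2 counts, or 0.0566 CPM (95% exact Poisson interval 0.0184 to 0.132) and 0.0227 CPM (0.00275 to 0.0820). Znrf3 was thus the ligase detected above a few counts in these cells.

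Sp5 encodes a zinc finger factor that represses TCF/LEF target genes. Sp5 (chromosome 2, 70474923 to 70477729, plus strand) had 0 counts in all 6 libraries, which allows a level of up to 0.0340 CPM in the control group and 0.0341 CPM in the knockout group (3 counts over the 3 libraries of a group). It is the gene whose promoter window, printed above, held the TCF/LEF letters.

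Per kilobase of exon the control levels ran in the order Axin1 (14.9), Nkd1 (2.13), Apcdd1 (1.27), Znrf3 (0.970), Axin2 (0.889), Nkd2 (0.747) and Notum (0.122), with Wif1, Rnf43 and Sp5 at 0.0193 or less. Znrf3 and Axin2 were neighbours whose control libraries overlapped. The lowest control value of Axin2 (0.811) and the highest of Nkd2 (0.800) nearly met, and the other steps among the first 7 showed no overlap between libraries. In knockout cells Axin2 (1.71 ± 0.334) drew level with Apcdd1 (1.73 ± 0.0902), their libraries overlapping, and Znrf3 (0.914 ± 0.0419) lay below Nkd2 (1.21 ± 0.0285), without overlap (SD, n = 3). The Axin1 level lay above that of 77.8% of tested genes in control cells and the Axin2 level above that of 22.8%. Exon length was taken over all annotated exons, so a gene with a long, rarely used exon is understated.

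Summed over the 10 genes, the level was 21.0 ± 0.556 CPM per kilobase in control and 21.8 ± 0.678 in knockout cells (SD, n = 3), and the libraries of the 2 groups overlapped. Since Axin1 is most of this sum, a similar sum does not mean that the other members together were unchanged. Axin2, Notum, Nkd1, Nkd2 and Apcdd1 were each higher in every knockout library than in every control library, and Znrf3 lower. The make-up also differed. Axin1 gave 70.7% ± 0.382 of the sum in control and 61.3% ± 1.73 in knockout cells. Axin2 gave 4.22% ± 0.537 and 7.82% ± 1.27, Nkd2 3.55% ± 0.245 and 5.55% ± 0.117, Apcdd1 6.04% ± 0.278 and 7.92% ± 0.370, and Nkd1 10.2% ± 0.276 and 11.7% ± 0.812. Notum gave 0.587% ± 0.329 and 1.55% ± 0.122, and Znrf3 4.61% ± 0.146 and 4.19% ± 0.193. The mean shares of Axin2, Notum, Nkd1, Nkd2 and Apcdd1 were thus higher in knockout cells and those of Axin1 and Znrf3 lower. Axin1 was most of the sum in both groups. A share also falls when other members rise, so these shares are not changes in level. The level of Znrf3 had a log2 fold change of -0.08 (SE 0.092) and that of Axin1 -0.15 (SE 0.050).

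**Figure D3:**
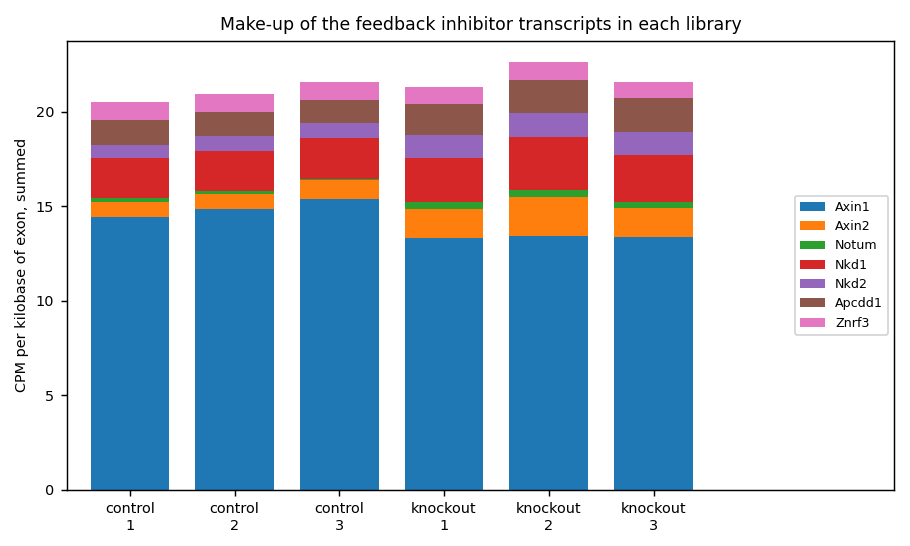
Stacked bars of CPM per kilobase of exon for the feedback inhibitors in each of the 6 libraries. The bars reach similar heights, with means of 21.0 in control and 21.8 in knockout cells, while the Axin1 block is smaller and the Axin2, Nkd2 and Apcdd1 blocks larger in the knockout libraries.

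Libraries of 1 group differed more in Axin2 than in the other tested members, apart from Notum among the control libraries. The coefficient of variation of Axin2 was 15.3% in control and 19.5% in knockout libraries, where counting alone would give about 8.36% and 5.98%. For Apcdd1 it was 2.05% and 5.22%, with 4.55% and 3.91% from counting, and for Znrf3 1.32% and 4.59%, with 6.66% and 6.86%. In knockout libraries it was 0.277% for Axin1, 2.35% for Nkd2 and 5.66% for Notum, with 2.58%, 7.6% and 20.4% from counting. Nkd1 went the other way there, at 10.1% with 5.40% from counting. An SD smaller than counting error is not a sign of precision. Axin2 in control replicate 3 was 0.25 and in knockout replicate 2 0.31 above its group mean in log2 CPM. Knockout replicate 2 was the highest of its group for 5 of the 7 tested members (Axin1, Axin2, Nkd1, Nkd2 and Znrf3), while control replicate 3 was highest for 3 (Axin1, Axin2 and Nkd1) and lowest for 2 (Notum and Apcdd1), and control replicate 1 was highest for 3 (Notum, Apcdd1 and Znrf3). Summed fat cell markers were lowest within each group in control replicate 3 (8512 CPM) and knockout replicate 2 (10970 CPM). Single markers differed in this. Fabp4, the most abundant, was the lowest of its group in both (4268 and 5951 CPM), but Plin1 was the highest in both (208 and 334 CPM). Whether Axin2 and the fat cell markers are linked was not tested. Without both of these libraries, an alternative chosen after seeing the data, the log2 fold changes were 0.91 for Axin2, 1.09 for Notum, 0.70 for Nkd2, 0.41 for Apcdd1 and -0.13 for Axin1.

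**Figure D4:**
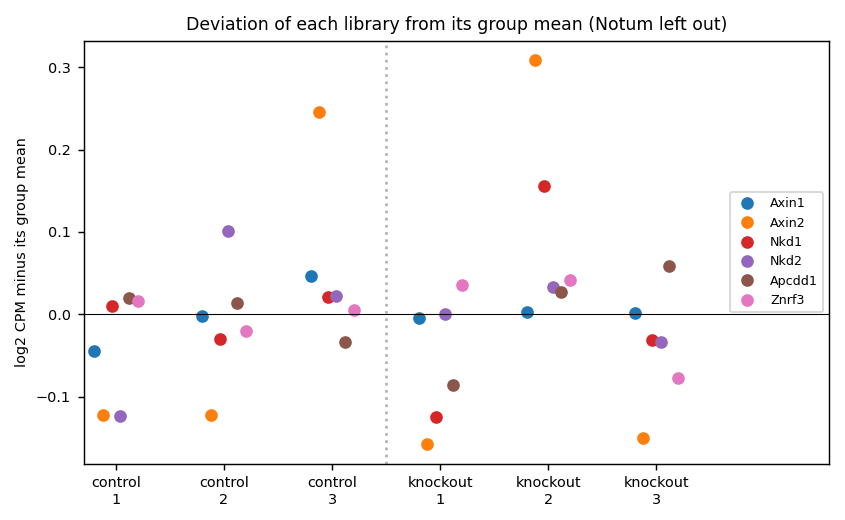
Log2 CPM of 6 tested feedback inhibitors minus the mean of the library's own group (vertical axis), by library. Axin2 lies 0.25 above its mean in control replicate 3 and 0.31 above in knockout replicate 2, and Nkd1 0.16 above in the latter, while most other points lie closer to 0. Notum, at few counts, is left out.

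Likeness to Axin2 was described by Pearson's r of log2 CPM over the 6 libraries, among 10972 other tested genes whose average log2 CPM was 2 or more. The 5 most alike were Ctsd (r = 0.998), Fasn (0.998), Etfb (0.997), Ogdh (0.997) and Por (0.996). Fasn, which encodes fatty acid synthase, was at 982, 988 and 1209 CPM in control and 1817, 2554 and 1926 CPM in knockout libraries. Like Axin2, it was highest in control replicate 3 and knockout replicate 2, which follows from its being picked by likeness over these same libraries. In all, 286 genes had an r over 0.95, so these 5 are the top of a large group that shares the difference between groups. After centring on each group's mean, the 5 most alike were Mvb12b (r = 0.999), Cpt1c (0.999), Kat6b (0.998), Smcr8 (0.997) and Srsf2 (0.997), and 406 genes exceeded 0.95. Mvb12b, Cpt1c, Smcr8 and Srsf2 were not called between the groups. Among the members, centred r with Axin2 was 0.81 for Nkd1 and 0.60 for Axin1, and 0.29, 0.44, 0.0084 and -0.64 for Nkd2, Znrf3, Apcdd1 and Notum. These are descriptions over 6 points that share libraries and depth.

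The other Wnt pathway genes were grouped in 6 lists of 102 genes, of which 101 had a row and 80 were tested. Of the 80, 11 rose, 5 fell and 64 were not called, with a median log2 fold change of 0.0014. The share called, higher and lower, can be read against the 11.9% and 10.5% of all tested genes. Without control replicate 1 the counts were 6 higher and 3 lower, without knockout replicate 3 the lower count was 3, and without knockout replicate 2 there were 10 higher and 12 lower. The lists were drawn up with earlier results of these data known.

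The list of the destruction complex that the axins scaffold also holds genes of beta-catenin turnover and Ctnnb1 itself. Of its 17 tested genes, 0 were called by edgeR, DESeq2 or limma-voom, where edgeR called 22.4% of all tested genes. For 2 the unadjusted edgeR p was under 0.05, and the list median log2 fold change was -0.034. For 7 of the 17, Ctnnb1 among them, all knockout libraries lay below all controls, and for 1 all lay above, against 19.3% and 18.5% of all tested genes. Ctnnb1, which encodes beta-catenin, was at 919 and 873 CPM on average in control and knockout cells (log2 fold change -0.07, SE 0.045), and the kinase gene Csnk1a1 at 423 and 414 CPM. Likewise 0 of 9 tested intracellular brakes outside the set were called by edgeR, DESeq2 or limma-voom, and 4 had an unadjusted edgeR p under 0.05 (median -0.050). Ctnnbip1, whose product keeps beta-catenin from TCF proteins, was at 46.2 and 41.9 CPM, and Cxxc5, which encodes a Dishevelled-binding protein, at 40.1 and 36.4 CPM. Cxxc5 was called lower without knockout replicate 2 (log2 fold change -0.19, edgeR adjusted p = 0.0276).

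Among other secreted antagonists, 3 of 9 tested rose and 0 fell (median -0.072). The 3 belong to the secreted Frizzled-related family that binds Wnt proteins. Frzb of that family was not called and its groups overlapped (3.99 and 3.67 CPM on average in control and knockout cells). Sfrp5 was not tested. Sfrp2 rose 2.18-fold (log2 fold change 1.12, SE 0.17), from 26.4, 29.5 and 31.0 to 53.6, 79.8 and 55.1 CPM, with knockout replicate 2 the highest as for Axin2. Sfrp4 rose 1.32-fold and Sfrp1 1.22-fold, the latter from 365 ± 10.7 to 447 ± 10.1 CPM (SD, n = 3). Among receptors, co-receptors and Dishevelled genes, 2 of 17 rose and 2 fell (median -0.034). Ror1 rose 1.31-fold and Lrp6 by 0.22 on the log2 scale, and both calls needed control replicate 1 (edgeR adjusted p = 0.0954 and 0.0657 in its absence). Ror2 fell 1.23-fold and Ryk 1.13-fold, and the call of Ryk needed control replicate 1 (edgeR adjusted p = 0.0872 in its absence) and knockout replicate 3 (0.0591).

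R-spondins counter ZNRF3 and RNF43 by drawing them, with LGR receptors, from the membrane. Of 5 tested genes of this list, 2 rose and 1 fell (median 0.012). Rspo2 rose 1.34-fold, from 21.6 ± 0.886 to 29.0 ± 1.97 CPM (SD, n = 3). Rspo3 rose 1.52-fold from 2.00 ± 0.0990 to 3.07 ± 0.506 CPM, a call that needed control replicate 1 (edgeR adjusted p = 0.0504 in its absence) and knockout replicate 3 (0.0777). Rspo1 fell 1.36-fold from 3.95 ± 0.319 to 2.90 ± 0.368 CPM. That call was lost with DESeq2 (adjusted p = 0.0867). It also needed each of control replicates 1 and 2 (edgeR adjusted p = 0.0872 and 0.114 in their absence) and knockout replicates 2 and 3 (0.0910 and 0.109).

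Other genes described as Wnt/beta-catenin targets were called in both directions: 4 of 23 tested rose and 2 fell (median 0.13), against 11.9% and 10.5% of all tested genes. For 8 of the 23 all knockout libraries lay above all controls and for 2 all lay below, against 18.5% and 19.3% of all tested genes. Without knockout replicate 2 the counts were 3 higher and 5 lower. Lbh, which encodes a transcriptional regulator, fell 1.78-fold from 149 ± 9.72 to 84.0 ± 7.13 CPM, and Ccn4, which encodes a matricellular protein, fell 1.44-fold from 86.0 ± 1.11 to 59.6 ± 1.55 CPM (SD, n = 3). Ccn5 rose 1.47-fold, the cell adhesion gene Nrcam 1.47-fold and Prickle1, a gene of planar polarity signalling, 1.19-fold. The call of Ccn5 needed knockout replicate 2 (edgeR adjusted p = 0.0515 in its absence), and that of Prickle1 control replicates 1 and 2 (0.0875 and 0.0947). Lbh and Ccn4 thus lay opposite in direction to Axin2, Notum, Nkd2 and Apcdd1 in the same libraries.

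**Figure D5:**
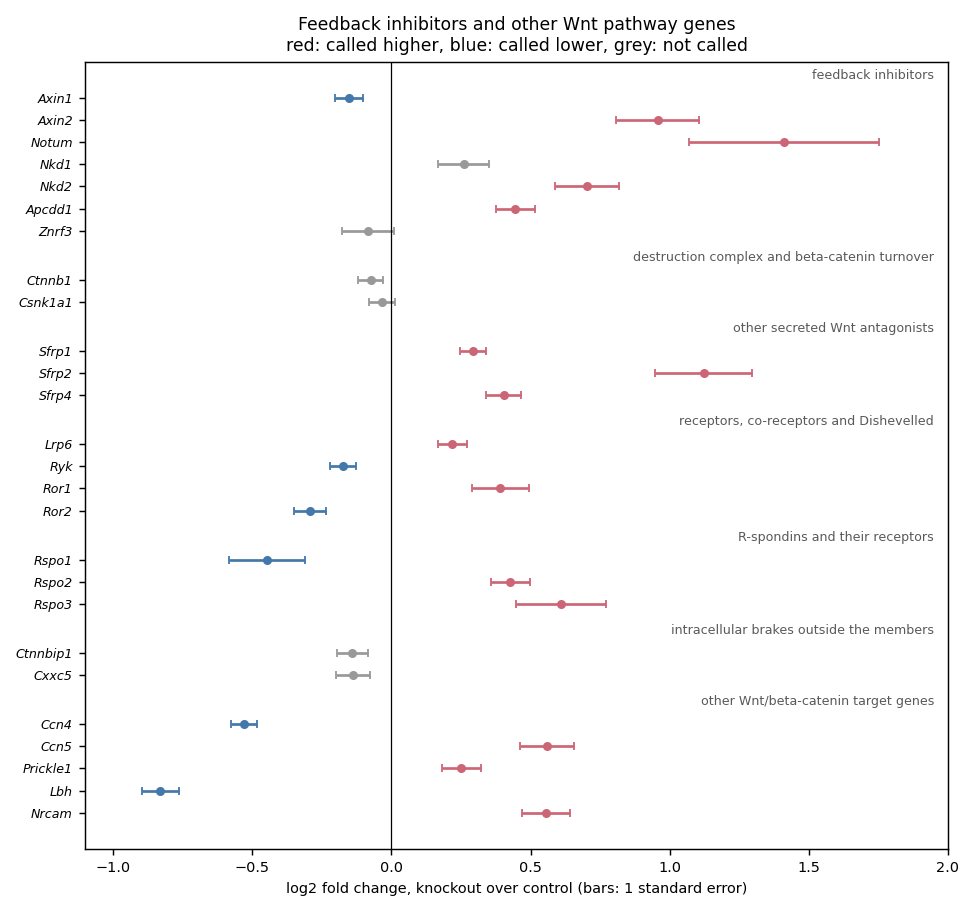
Log2 fold change of knockout over control (horizontal axis) with 1 standard error for the 7 tested feedback inhibitors and for named genes of 6 other Wnt pathway lists, coloured by edgeR call. Notum (1.41), Sfrp2 (1.12) and Axin2 (0.96) lie farthest right and Lbh (-0.83) farthest left. Ctnnb1 and Csnk1a1, the genes shown from the list of the destruction complex and beta-catenin turnover, lie near 0.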

How the data were processed

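Gene expression was measured by RNA-seq in 3 control and 3 knockout libraries, prepared with a stranded total RNA kit that removes ribosomal RNA, per the labels' protocols. The deposited values are raw read counts per Ensembl gene, 1 column per library, used as the authors gave them. Columns were matched to samples by title and samples to groups by genotype. Per the submitters' processing notes the tools were featureCounts 1.5.1, STAR 2.5.2b and DESeq2 1.16.0 and the build GRCm38, with no role stated. Not given in the sources used here are the annotation release, the strand setting and the handling of multiply mapping reads. Without strand-specific counting, reads of a gene and its antisense partner cannot be told apart. Symbols matched 49326 of 49671 identifiers. Positions and exon lengths are from GENCODE M21 (GRCm38) and promoters from RefSeq (GRCm38.p6).

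Knockout was compared with control in edgeR 4.0.16 (R 4.3.3; quasi-likelihood F-test, robust, TMM, filterByExpr, group as the only term) on 14946 genes, with Benjamini-Hochberg adjustment and calls at 0.05. The SE of a log2 fold change is its absolute value over the square root of F. CPM uses the totals of tested genes. Total counts were 26621293 to 33484764 per library and the common biological coefficient of variation 5.91%. Log2 CPM used a prior of 0.5 counts. The fit was tested on simulated data.

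The alternatives were DESeq2 size factors or total counts for scaling, no filter or a CPM of at least 1 in 3 libraries, DESeq2 1.42.0, limma-voom (limma 3.58.1) and leaving out each library. Besides Tcf7l2 and the 10 members, the text names up to 3 called genes per direction of each Wnt list (average log2 CPM of at least 0), or the 2 most abundant where none was called, the most abundant gene of each marker list (1 list is not reported here) and the 5 genes most like Axin2 by each measure. Plin1, Cdh5, Tek, Myf5, Sox10, Adgre1, Cd3e, Frzb, Sfrp5 and Notumos were named after their values were seen. The members, lists, rules and alternatives were chosen with earlier results of these data known.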

Additional observations from a re-analysis of the deposited data

How the results depend on the processing

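Calls of the feedback inhibitors are a description, since the same contrast was known when they were chosen. Counts of feedback inhibitors called lower went from 1 to 0 with no filter, with a CPM of at least 1 in 3 libraries, with DESeq2 and without control replicate 3 and knockout replicate 2 together (chosen after seeing the data), and to between 0 and 1 with 1 library left out. The cause was not tested. Over all genes, those called lower numbered 923 to 1646 with 1 library left out, against 1568. None of the 27 fold changes recomputed changed sign, but the balance of calls did in the other Wnt lists: without knockout replicate 2 there were 10 higher and 12 lower in all and 3 and 5 among target genes, and without control replicate 3 and knockout replicate 2 together 11 and 12 in all and 4 and 5. Tcf7l2 gave log2 fold changes of -0.46 to -0.19 with 1 library left out and was called without control replicate 2 (-0.46).

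For the other Wnt lists together, 9 genes were called lower with no filter, 12 without control replicate 3 and knockout replicate 2 together, and 3 to 12 with 1 library left out (main 5), while 6 to 11 were called higher with 1 left out (main 11). No filter gave 1 secreted antagonist, 4 receptor genes and 2 R-spondin genes called lower and 9 target genes called higher. The CPM minimum gave 1 intracellular brake called higher, and DESeq2 gave 0 R-spondin genes called lower. Without control replicate 3 and knockout replicate 2 together, 5 receptor genes, 0 R-spondin genes, 2 intracellular brakes and 5 target genes were called lower. With 1 library left out, receptor genes called higher numbered 0 to 2 and lower 1 to 5, R-spondin genes 1 to 2 and 0 to 1, and target genes 2 to 4 and 2 to 5, while 0 to 2 intracellular brakes were called lower. The cause was not tested.

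Depth limits Notum, Rnf43, Wif1 and Sp5, with at most 26 counts in any library. No paired analysis was possible because no replicate number in the labels is shared between the groups.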
